A study of Mus musculus with 8 samples.

Results

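The pre-T cell receptor (pre-TCR) of DN3 thymocytes and the kinases and adaptors closest to it were represented by 10 genes, chosen by symbol for their function. Ptcra encodes the invariant pre-Tα chain, Cd3e, Cd3d, Cd3g and Cd247 encode the CD3ε, CD3δ, CD3γ and CD3ζ chains, Lck, Fyn and Zap70 encode the proximal tyrosine kinases, and Lat and Lcp2 encode the adaptors LAT and SLP76. All 10 symbols were found among the 16538 protein-coding genes of the table, and all 10 were tested. RNA was sequenced from DN3 thymocytes, which lack CD4 and CD8 and have passed into the CD44- CD25+ stage, sorted from C57BL/6 mice at 6 weeks of age. The 4 control libraries were from Sel1l-f/f mice, labelled WT by the submitters although they carry the floxed alleles. The 4 Sel1l CKO libraries were from Sel1l-f/f hCD2cre+ mice, which carry the same floxed alleles together with an iCre recombinase driven by human CD2 regulatory sequences. This Cre acts from the early progenitor stage onward in all developing thymocytes, so deletion precedes DN3. SEL1L is the adaptor of the HRD1 ubiquitin ligase in endoplasmic reticulum-associated degradation (ERAD). The labels do not say whether a library is 1 mouse or a pool, and p-values here measure the spread between these libraries.

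Before a T cell carries its mature receptor, a rearranged TCRβ chain pairs with pre-Tα and assembles in the endoplasmic reticulum with CD3εγ, CD3εδ and CD3ζ dimers. Lck and Fyn phosphorylate tyrosine motifs in the CD3 tails, ZAP-70 docks there, and it phosphorylates LAT and SLP76, which gather the enzymes that carry the signal to calcium, Ras and NF-κB. This signal, together with that of Notch, carries thymocytes through β-selection from DN3 to DN4. All of these receptor chains are membrane proteins that are folded in the endoplasmic reticulum, which is where ERAD removes subunits that fail to assemble. Transcripts of the rearranging TCR loci were not analysed here.

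Values are RPKM, reads scaled to gene length and to the total of reads counted, as the authors deposited them. From the steps between low values, 32900250 to 50401354 reads were counted on genes per library, and each of the 10 genes had from 2347 to 82312 reads in a library, so counting alone gives a coefficient of variation of at most 2.06% (Zap70), below the 6.46% to 20.7% seen between libraries of a genotype. Sel1l itself fell from 1.67 ± 0.114 to 1.09 ± 0.222 RPKM (SD, n = 4 each), 65.1% of control, without overlap (limma adjusted p = 0.0417). In replicates 1 and 2 alone its log2 difference was -0.89, against -0.30 in replicates 3 and 4, so the targeted transcript itself differed less in the second set. DN3 markers were present in every library, among them Il2ra, which encodes CD25, at 16.9 to 23.1 RPKM and Rag1 at 45.4 to 78.2 RPKM. Of 9 early progenitor markers, only Kit passed the filter on low values, at 0.187 to 0.388 RPKM. Of the other 8, Hhex reached 0.215 RPKM, and Flt3 and Gata2 were at 0 or close to it in every library. The gene length behind RPKM here includes introns, which lowers the values of long genes. A marker under the filter is therefore not shown to be absent. Neither the labels nor the methods name a batch. As replicates 1 and 2 lay apart from replicates 3 and 4 in several genes, differences within each set are given for Sel1l, the 10 genes and those named by rule.

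The question of this comparison is whether loss of SEL1L alters the transcripts of the pre-TCR and of its proximal signalling proteins. All 5 receptor chains had lower means in Sel1l CKO, at 77.2% (Ptcra) to 84.2% (Cd247) of control, whereas the kinases and adaptors lay on both sides of control, from 87.7% (Lat) to 123% (Zap70). None of the 10 genes passed the threshold, limma's moderated test on log2(RPKM + 0.1) with a Benjamini-Hochberg adjusted p under 0.05 over 10177 genes, where 3.94% of all genes tested did (2.98% higher and 0.963% lower). With limma voom on the reads recovered from the table the number was also 0. At an unadjusted p under 0.05, 5 of the 10 genes were lower, which are the 5 receptor chains, and 0 were higher, beside 10.5% lower, 9.38% higher and 19.8% in either direction of all genes tested. The genotypes did not overlap for 3 genes, all lower in Sel1l CKO (Cd3e, Cd3g and Cd247), beside 6.32% of all genes tested, and 0 genes lay wholly above control, beside 7.4%. The fitted difference was below 0 for 8 of the 10 genes, beside 52.3% of all genes tested. The fitted log2 difference is that of the group means of log2(RPKM + 0.1), Sel1l CKO minus control. Its median was -0.22 over the 10 genes, -0.28 over the 5 receptor chains, -0.01 over the 5 kinases and adaptors and -0.01 over all genes tested. Whether chains and kinases differ in their change was not tested. In sorted bulk samples, fewer cells of a kind and less RNA per cell cannot be told apart.

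**Figure D1:**
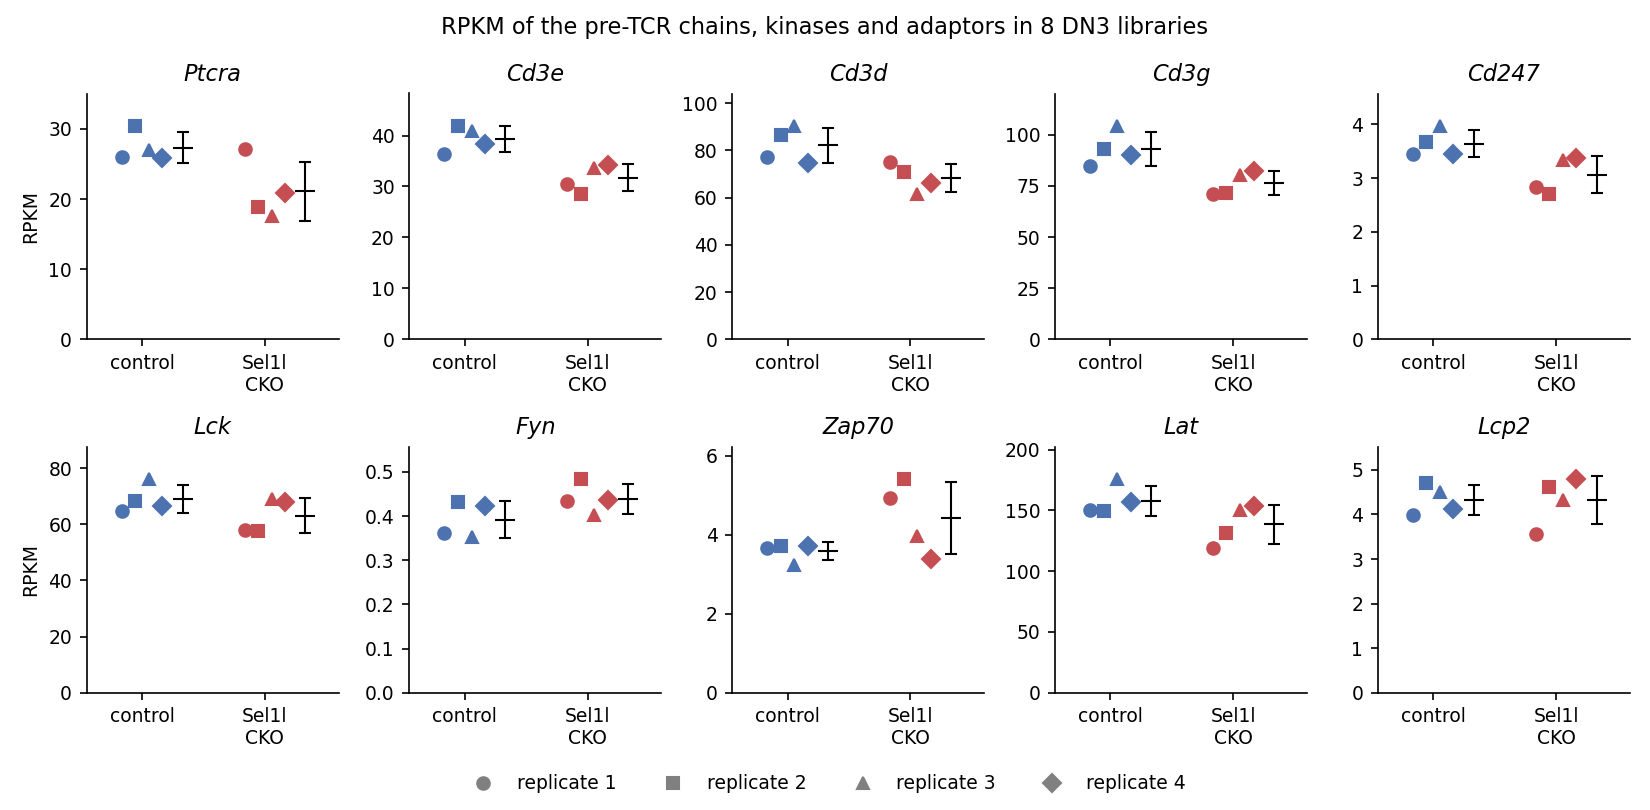
RPKM of each gene (vertical axes, starting at 0) in the 4 control (blue) and 4 Sel1l CKO (red) libraries, with a symbol for each replicate number and the mean ± SD beside the points. Cd3e, Cd3g and Cd247 show no overlap between genotypes, Ptcra in Sel1l CKO has 1 library (replicate 1) within the control range, and Zap70 in Sel1l CKO is the most spread of the kinases.

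Ptcra (ENSMUSG00000036858.8, chromosome 17 of GRCm38, 46755663 to 46763712, minus strand) is the gene by which the pre-TCR differs from the mature receptor, and a known target of Notch and E proteins. It measured 26.0, 30.5, 27.0 and 25.8 RPKM over control replicates 1 to 4, against 27.2, 18.8, 17.5 and 20.8 RPKM over those of Sel1l CKO in the same order. Replicates 2, 3 and 4 of Sel1l CKO lay below all control libraries and replicate 1 lay among them. Means were 27.3 ± 2.17 RPKM for control and 21.1 ± 4.27 RPKM for Sel1l CKO (SD, n = 4 each). Its fitted log2 difference of -0.39 (with standard error 0.13, 95% interval -0.69 to -0.09) was the largest of the 10 genes in size and had a limma adjusted p of 0.150 (exact permutation test, two-sided, p = 0.114). Without Sel1l CKO replicate 1, the library that lay among the controls, it was -0.52 with a limma adjusted p of 0.0174, whereas leaving out any other library gave -0.42 to -0.31 with adjusted p of 0.178 to 0.284. Within replicates 1 and 2 the log2 difference was -0.31 and within replicates 3 and 4 it was -0.47.

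The CD3ε chain is shared by both CD3 heterodimers. Cd3e (ENSMUSG00000032093.7, chromosome 9, 44998740 to 45009627, minus strand) measured 36.3, 42.0, 40.8 and 38.3 RPKM over control replicates 1 to 4, against 30.6, 28.5, 33.6 and 34.2 RPKM over those of Sel1l CKO in the same order, with no overlap. From 39.3 ± 2.54 to 31.7 ± 2.69 RPKM (SD, n = 4 each), this was a fitted log2 difference of -0.31 (with standard error 0.08, 95% interval -0.49 to -0.13). Its limma adjusted p of 0.0653 was the lowest of the 10 genes, and the exact permutation p of 0.0286 is the smallest that 4 libraries against 4 allow. With replicates 1 and 2 against 3 and 4 as a term in the model, a split that no label names, the limma adjusted p was 0.0407. It was 0.122 with a term for each replicate number (a replicate block) and 0.0510 with voom on recovered reads. The log2 differences within the replicate sets were -0.40 and -0.22. The interval spans 71.2% to 91.1% of control.

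CD3γ and CD3δ each pair with CD3ε. Their genes are divergent neighbours on chromosome 9, with 1355 bases between the start sites. Cd3g (ENSMUSG00000002033.14, 44969572 to 44980431, minus strand) measured 84.5, 93.1, 104 and 89.8 RPKM over control replicates 1 to 4, against 71.0, 71.7, 80.4 and 82.0 RPKM over those of Sel1l CKO in the same order, again with no overlap. The fitted log2 difference was -0.28 (with standard error 0.08, limma adjusted p = 0.106, exact permutation p = 0.0286). With the replicate sets as a term the limma adjusted p was 0.0427, with a replicate block 0.1115 and with voom 0.0773. Cd3d (ENSMUSG00000032094.8, 44981786 to 44987339, plus strand) measured 77.2, 86.4, 90.5 and 74.8 RPKM over control replicates 1 to 4, against 75.2, 70.8, 61.4 and 66.2 RPKM over those of Sel1l CKO in the same order. Here Sel1l CKO replicate 1 lay above control replicate 4 and the other 3 libraries lay below all controls, a fitted log2 difference of -0.26 (with standard error 0.09, limma adjusted p = 0.142, exact permutation p = 0.0571). The neighbours differed in which replicates were lowest in Sel1l CKO, replicates 1 and 2 for Cd3g and replicates 3 and 4 for Cd3d. Accordingly the log2 differences within replicates 1 and 2 and within replicates 3 and 4 were -0.31 and -0.25 for Cd3g and -0.16 and -0.37 for Cd3d.

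CD3ζ forms the homodimer that joins the receptor last and carries the most tyrosine motifs of the chains. Cd247 (ENSMUSG00000005763.15, chromosome 1, 165788681 to 165877277, plus strand) measured 3.44, 3.68, 3.98 and 3.45 RPKM over control replicates 1 to 4, against 2.83, 2.71, 3.34 and 3.38 RPKM over those of Sel1l CKO in the same order. The groups did not overlap, but the gap between control replicate 1 and Sel1l CKO replicate 4 was narrow. Its fitted log2 difference was -0.25 (with standard error 0.09, 95% interval -0.45 to -0.04, limma adjusted p = 0.187, exact permutation p = 0.0286), at -0.35 within replicates 1 and 2 and -0.14 within replicates 3 and 4. The 3' part of Cd247 overlaps the protein-coding gene Pou2f1 on the other strand. The sources used here do not say whether the counting used strand, so its reads are less certain. Among the other chains, Ptcra and Cd3e overlap annotated non-coding genes on the other strand. Fyn, Zap70 and Lcp2 also overlap genes there, and the same doubt holds for all of these.

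Because the 5 chain genes all had lower means in Sel1l CKO, the sequence before their start sites is shown, the 250 bases up to the start from the RefSeq promoter windows of GRCm38.p6, each 5' to 3' on the strand of its gene. Capitals mark matches, on either strand, to the letters searched: GTGGGAA for RBP-J, the DNA-binding partner of Notch; CAGCTG and CACCTG for E proteins, both forms of the E-box; CCGGAA for ETS, TGTGGT for RUNX and CTTTGA for TCF factors; TGACGTGG for the unfolded protein response element; and TATAAA for the TATA box.
Ptcra, chr17:46763713-46763962, minus strand: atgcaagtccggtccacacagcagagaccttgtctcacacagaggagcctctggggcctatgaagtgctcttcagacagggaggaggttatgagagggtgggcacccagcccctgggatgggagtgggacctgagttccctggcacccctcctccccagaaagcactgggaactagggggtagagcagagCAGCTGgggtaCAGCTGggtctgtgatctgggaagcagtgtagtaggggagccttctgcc
Cd3e, chr9:45009612-45009861, minus strand: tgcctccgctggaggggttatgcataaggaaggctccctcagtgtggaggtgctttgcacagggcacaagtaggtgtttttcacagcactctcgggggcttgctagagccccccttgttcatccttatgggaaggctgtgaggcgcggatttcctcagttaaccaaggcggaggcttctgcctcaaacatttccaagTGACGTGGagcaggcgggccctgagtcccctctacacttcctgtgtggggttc
Cd3g, chr9:44980432-44980681, minus strand: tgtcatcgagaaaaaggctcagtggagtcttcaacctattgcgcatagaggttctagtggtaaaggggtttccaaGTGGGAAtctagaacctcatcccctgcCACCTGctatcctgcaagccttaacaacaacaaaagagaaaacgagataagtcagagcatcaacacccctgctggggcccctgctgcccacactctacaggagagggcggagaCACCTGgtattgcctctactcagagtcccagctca
Cd3d, chr9:44981536-44981785, plus strand: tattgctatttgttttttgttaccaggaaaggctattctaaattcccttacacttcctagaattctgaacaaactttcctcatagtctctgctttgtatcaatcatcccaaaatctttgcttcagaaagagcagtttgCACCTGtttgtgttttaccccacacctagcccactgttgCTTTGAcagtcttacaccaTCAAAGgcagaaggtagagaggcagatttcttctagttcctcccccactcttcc
Cd247, chr1:165788431-165788680, plus strand: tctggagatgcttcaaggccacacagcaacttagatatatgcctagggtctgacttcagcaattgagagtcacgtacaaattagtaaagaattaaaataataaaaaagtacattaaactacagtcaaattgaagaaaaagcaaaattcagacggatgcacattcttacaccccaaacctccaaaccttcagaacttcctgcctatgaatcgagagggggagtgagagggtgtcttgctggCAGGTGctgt

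Ptcra held CAGCTG at positions -60 and -49 from its start, a sequence present in 16.3% of the 32817 windows of 300 bases in the mouse table. Cd3e held TGACGTGG at -53, a sequence present in 0.676% of all windows. Cd3g held GTGGGAA at -175 and CACCTG at -148 and -35, and Cd3d held CACCTG at -112 and TCF letters at -73 and -54. Cd247 held the reverse complement of CACCTG at -10. Further matches in the last 50 bases of the windows, after the start, are not shown. GTGGGAA is present in 6.39% of all windows and in 3 of the 13 windows of the 10 genes (Cd3g, Lat and Zap70). CACCTG is in 20.2% and in 8 of these 13 (Cd247, Cd3d, Cd3e, Cd3g, Lck and Zap70). CAGCTG is in 3 of these 13 (Cd3g, Lcp2 and Ptcra). TCF letters are in 16% of all windows and in 5 of these 13 (Cd247, Cd3d, Fyn, Lcp2 and Zap70). These letters were thus not confined to the receptor chains. The ER stress element (CCAAT, then 9 bases, then CCACG) was in 0.119% of all windows and in 0 of the 13 windows of the 10 genes, and the TATA box was in 13.6% of all windows and in 0 of these 13. These matches describe letters within the windows and do not show that a factor binds. The known upstream enhancer of Ptcra lies outside them.

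**Figure D2:**
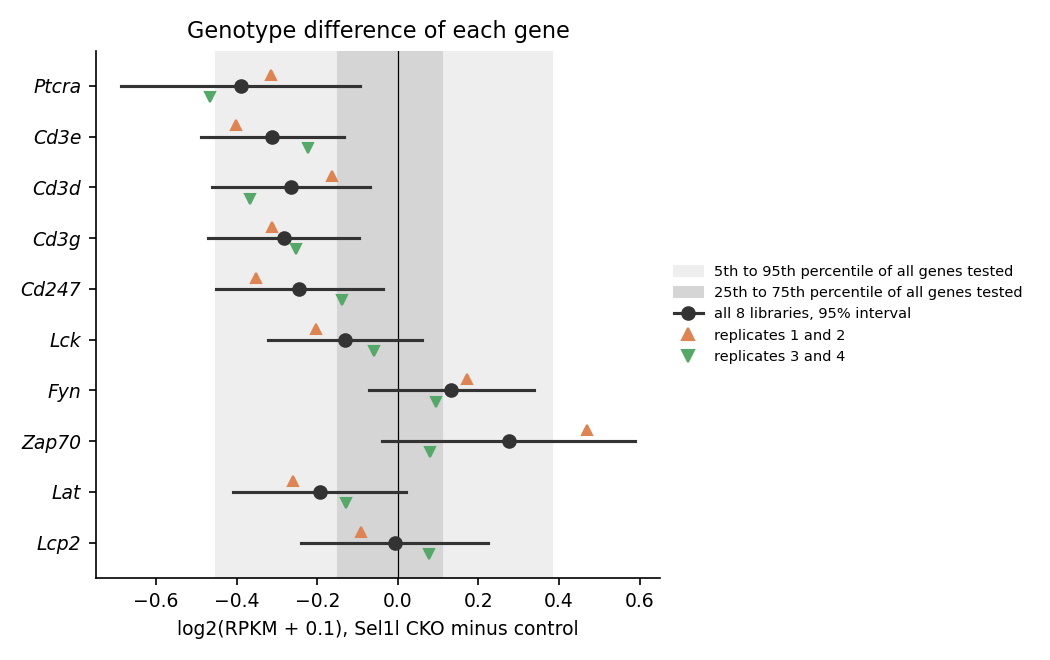
Difference between Sel1l CKO and control on the log2(RPKM + 0.1) scale (horizontal axis) for each gene, with the 95% interval of the fit over 8 libraries (black) and the differences within replicates 1 and 2 (orange) and replicates 3 and 4 (green). The intervals of the 5 receptor chains lie below 0 and those of the 5 kinases and adaptors include 0, while the grey bands give the spread of all 10177 genes tested.

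Of the kinases, Lck is the Src-family enzyme that starts pre-TCR signalling. Lck (ENSMUSG00000000409.14, chromosome 4, 129548344 to 129573641, minus strand) measured 64.8, 68.1, 76.1 and 66.6 RPKM over control replicates 1 to 4, against 58.0, 57.4, 68.9 and 67.7 RPKM over those of Sel1l CKO in the same order. Sel1l CKO replicates 1 and 2 lay below all controls and replicates 3 and 4 among them. Its fitted log2 difference was -0.13 (with standard error 0.08, limma adjusted p = 0.419), with an interval that spans 80.0% to 104% of control, so a decrease of the size seen in Cd3e lies inside it. Within replicates 1 and 2 the log2 difference was -0.20 and within replicates 3 and 4 it was -0.06.

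Fyn, the Src-family kinase that partly overlaps with Lck in function, spans 196527 bases (ENSMUSG00000019843.14, chromosome 10, 39368855 to 39565381, plus strand), and this length keeps its RPKM low. It measured 0.362, 0.432, 0.351 and 0.423 RPKM over control replicates 1 to 4, against 0.434, 0.484, 0.401 and 0.436 RPKM over those of Sel1l CKO in the same order, from 2430 to 4796 reads per library. Replicates 1, 2 and 4 of Sel1l CKO were above the highest control, replicates 1 and 4 narrowly. The fitted log2 difference was 0.13 (with standard error 0.09, 95% interval -0.07 to 0.34, limma adjusted p = 0.438). It depends on the pseudocount at this level, with 0.05 for a pseudocount of 1 and 0.16 for one of 0.01.

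ZAP-70 is the kinase recruited to phosphorylated CD3 chains. Zap70 (ENSMUSG00000026117.10, chromosome 1, 36761798 to 36782818, plus strand) measured 3.68, 3.72, 3.24 and 3.71 RPKM over control replicates 1 to 4, against 4.92, 5.42, 3.97 and 3.39 RPKM over those of Sel1l CKO in the same order. Replicates 1, 2 and 3 of Sel1l CKO were above every control library and replicate 4 was below 3 of the 4. Means of 3.59 ± 0.233 and 4.42 ± 0.914 RPKM (SD, n = 4 each) gave a fitted log2 difference of 0.27 (with standard error 0.14, 95% interval -0.04 to 0.59, limma adjusted p = 0.311, exact permutation p = 0.2). The difference came mainly from replicates 1 and 2, at 0.47, against 0.08 within replicates 3 and 4.

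Syk, a kinase of the same family that can stand in for ZAP-70 in DN thymocytes, had a lower mean in Sel1l CKO, where Zap70 had a higher one. It measured 1.44, 1.55, 1.57 and 1.36 RPKM over control replicates 1 to 4, against 1.16, 1.08, 1.24 and 1.43 RPKM over those of Sel1l CKO in the same order. Sel1l CKO replicates 1, 2 and 3 lay below all controls and replicate 4 within their range. The fitted log2 difference of Syk was -0.25 (with standard error 0.09, limma adjusted p = 0.184), at -0.39 and -0.12 within the replicate sets. On exon length, Zap70 exceeded Syk by 2.44 ± 0.282 times in control and by 3.71 ± 1.16 times in Sel1l CKO (SD, n = 4 each). In Sel1l CKO replicates 1 to 4 this ratio was 4.26, 5.02, 3.197 and 2.37, of which replicates 1, 2 and 3 were above the highest control ratio of 2.74.

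LAT is the membrane adaptor phosphorylated by ZAP-70. Lat (ENSMUSG00000030742.7, chromosome 7, 126363824 to 126369570, minus strand) measured 150, 150, 176 and 157 RPKM over control replicates 1 to 4, against 119, 132, 150 and 153 RPKM over those of Sel1l CKO in the same order. As for Lck, Sel1l CKO replicates 1 and 2 were below all controls and replicates 3 and 4 within their range. The fitted log2 difference was -0.19 (with standard error 0.09, 95% interval -0.41 to 0.02, limma adjusted p = 0.300), at -0.26 and -0.13 within the replicate sets. SLP76 is the cytosolic adaptor that LAT recruits. Its gene Lcp2 (ENSMUSG00000002699.13, chromosome 11, 34046920 to 34092295, plus strand) measured 3.98, 4.71, 4.50 and 4.13 RPKM over control replicates 1 to 4, against 3.56, 4.62, 4.31 and 4.80 RPKM over those of Sel1l CKO in the same order. The ranges overlapped, with a fitted log2 difference of -0.01 (with standard error 0.10, 95% interval -0.24 to 0.22, limma adjusted p = 0.975), and the sign turned under some alternatives.

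RPKM in this table is set on the length of the gene with its introns, so levels of different genes were compared after rescaling to the union of their exons. On this scale Lck was highest in control at 595 ± 43.3, followed by Lat at 326 ± 25.5, Cd3g at 309 ± 27.9, Cd3d at 238 ± 21.6, Ptcra at 171 ± 13.6, Cd3e at 105 ± 6.76, Cd247 at 60.5 ± 4.18, Lcp2 at 44.1 ± 3.39, Zap70 at 25.2 ± 1.64 and Fyn at 17.7 ± 1.86 (SD, n = 4). Control ranges of neighbours in this order did not overlap, except those of Lat and Cd3g (309 to 363 and 281 to 347). Lck ranked 62 and Fyn 3002 among the 10033 tested genes that have such a level. In Sel1l CKO the order of the means was unchanged, and 3 pairs of neighbours overlapped in range, Lat (246 to 317) with Cd3g (236 to 273), Cd247 (45.1 to 56.2) with Lcp2 (36.2 to 48.9) and Lcp2 with Zap70 (23.8 to 38.1). The order depends on the length used. On the longest principal transcript Cd3g came first in control, at 987, before Lck at 798, Lat at 731, Cd3e at 292, Cd3d at 267, Cd247 at 198 and Ptcra at 171, while Lcp2 (53.9), Zap70 (33.6) and Fyn (21.6) stayed last.

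**Figure D3:**
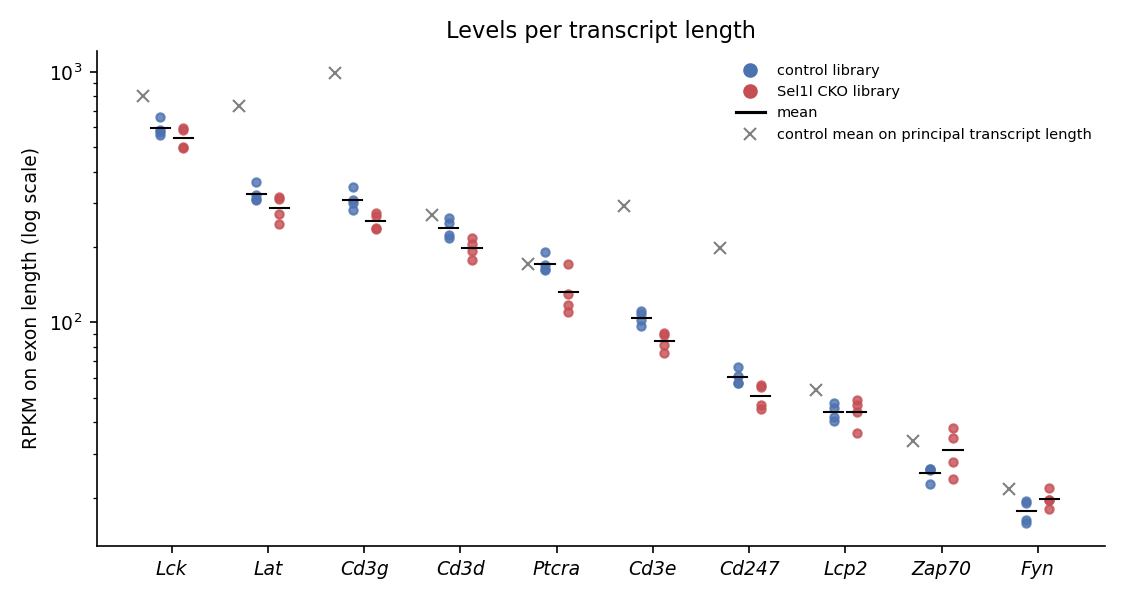
Level of each gene per exon length (vertical axis, RPKM on the union of exons, log scale) in control (blue) and Sel1l CKO (red) libraries, with lines at the means and grey crosses for the control mean on the length of the principal transcript. Levels run from 595 for Lck to 17.7 for Fyn in control, and the crosses of Cd3g, Cd3e and Cd247 lie furthest above their points.

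Ratios within a library show whether the chains moved apart. On exon length, Cd3e stood to Cd3g as 0.340 ± 0.0198 in control and 0.333 ± 0.0110 in Sel1l CKO, and Cd247 to Cd3e as 0.579 ± 0.0279 and 0.603 ± 0.0199 (SD, n = 4 each). Both ratios overlapped between genotypes, with Sel1l CKO means at 97.9% and 104% of control. Ptcra to Cd3e was 1.64 ± 0.0743 in control and 1.58 ± 0.369 in Sel1l CKO, where single libraries ranged from 1.23 (replicate 3) to 2.10 (replicate 1), wider than the control range of 1.56 to 1.71. Cd3d to Cd3g showed the same widening, from 0.726 to 0.810 in control and from 0.667 to 0.923 in Sel1l CKO. Lck to Fyn was 34.1 ± 5.35 in control and 27.8 ± 4.47 in Sel1l CKO, and Lat to Lcp2 was 7.43 ± 0.673 and 6.53 ± 0.560 (SD, n = 4 each). None of the 7 ratios computed separated the genotypes without overlap.

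**Figure D4:**
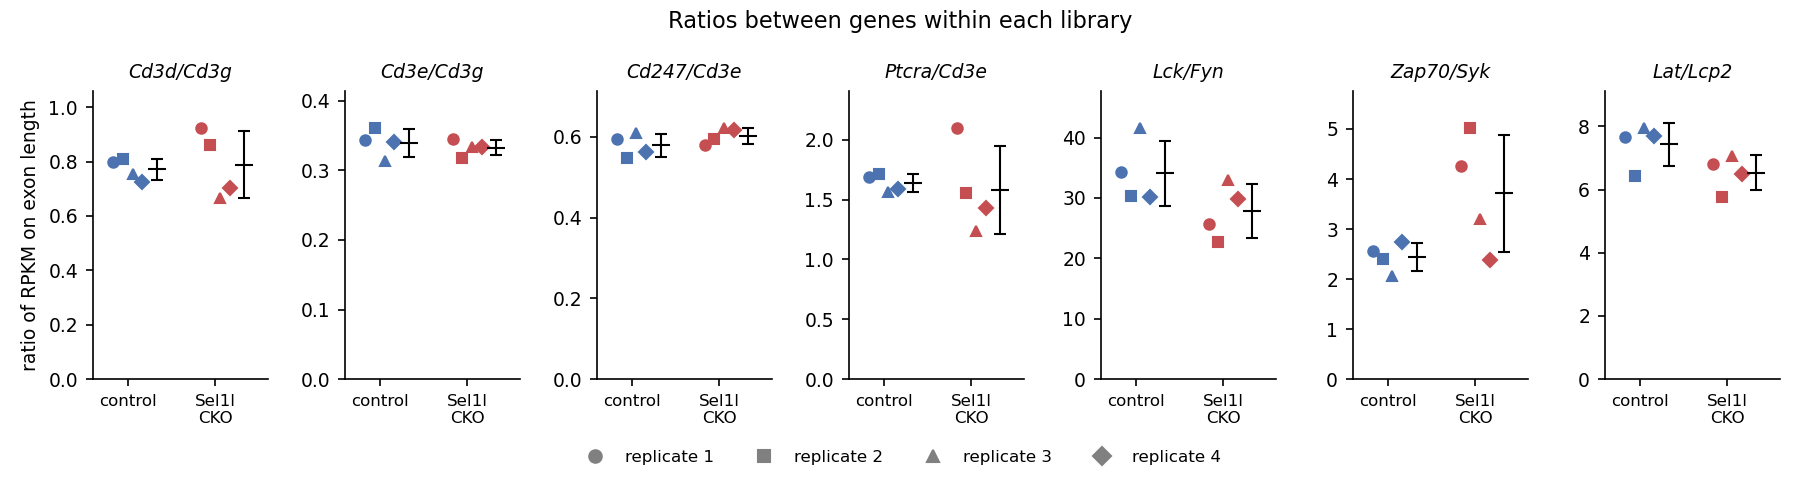
Ratios of RPKM on exon length between genes of the same library (vertical axes, starting at 0) for control (blue) and Sel1l CKO (red), with a symbol for each replicate number and mean ± SD. The ratios of Cd3e to Cd3g and of Cd247 to Cd3e keep within 0.313 to 0.361 and 0.548 to 0.621 over the 8 libraries, while Zap70 to Syk spreads from 2.07 to 5.02.

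Other genes of the pathway were taken from lists by role. Of 30 tested kinases, adaptors and effectors beside or downstream of the 10 genes, Syk included, 1 rose, the adaptor Shc1, from 8.08 ± 0.346 to 10.5 ± 1.03 RPKM (SD, n = 4 each, fitted log2 difference 0.37, limma adjusted p = 0.0382), and 0 fell, beside 2.98% higher and 0.963% lower of all genes tested. Shc1 differed by 0.28 within replicates 1 and 2 and by 0.47 within replicates 3 and 4. The median fitted log2 difference of this list was -0.08, with 2 higher and 4 lower at an unadjusted p under 0.05 (9.38% and 10.5% of all genes tested), shares near those of all genes. Chosen after their values were seen, these include the phospholipase Plcg1 (fitted log2 difference -0.26, limma adjusted p = 0.240) and the Ras activator Rasgrp1 (0.28, adjusted p = 0.119). Of 23 tested inhibitors and phosphatases, 0 passed in limma, beside 3.94% of all genes tested, and 9 were lower and 0 higher at an unadjusted p under 0.05, beside 10.5% and 9.38%. Their median was -0.13, down to -0.48 for Ptprc, named after its value was seen, which encodes the CD45 phosphatase (limma adjusted p = 0.142).

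Genes that pre-TCR signals are known to induce did not all move one way. Fitted differences were above 0 for 9 and below 0 for 14, beside 52.3% below 0 of all genes tested. Of 23 tested, 2 rose and 0 fell, beside 2.98% and 0.963% of all genes tested, and 3 were higher and 4 lower at an unadjusted p under 0.05, beside 9.38% and 10.5%. Those that rose encode both subunits of the CD98 amino acid transporter, Slc7a5 (6.28 ± 0.235 to 13.8 ± 4.41 RPKM, SD, n = 4 each, fitted log2 difference 1.08, limma adjusted p = 0.0134) and Slc3a2 (8.24 ± 1.08 to 15.8 ± 3.95 RPKM, SD, n = 4 each, fitted log2 difference 0.90, limma adjusted p = 0.0280). Within replicates 1 and 2 and within replicates 3 and 4 the log2 differences were 1.16 and 0.997 for Slc7a5 and 1.01 and 0.80 for Slc3a2. Both are also known targets of the stress factor ATF4. The median of the list was -0.19. Its lowest and highest members were named after their values were seen, and the lowest was the transcription factor Egr1. This gene measured 5.26, 4.94, 48.4 and 34.7 RPKM over control replicates 1 to 4, against 3.07, 2.93, 7.67 and 8.34 RPKM over those of Sel1l CKO in the same order (fitted log2 difference -1.54, limma adjusted p = 0.317). Replicates 3 and 4 were higher than replicates 1 and 2 in both genotypes. The highest was Cd2 (fitted log2 difference 1.18, limma adjusted p = 0.174), at 0.101 to 0.368 RPKM in control and 0.300 to 1.55 RPKM in Sel1l CKO. Dusp2, also named after its values were seen, was at 40.5 to 73.3 RPKM in control and 24.3 to 38.2 RPKM in Sel1l CKO. It was lower without overlap, as were 6.32% of all genes tested (fitted log2 difference -0.78, limma adjusted p = 0.0721).

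**Figure D5:**
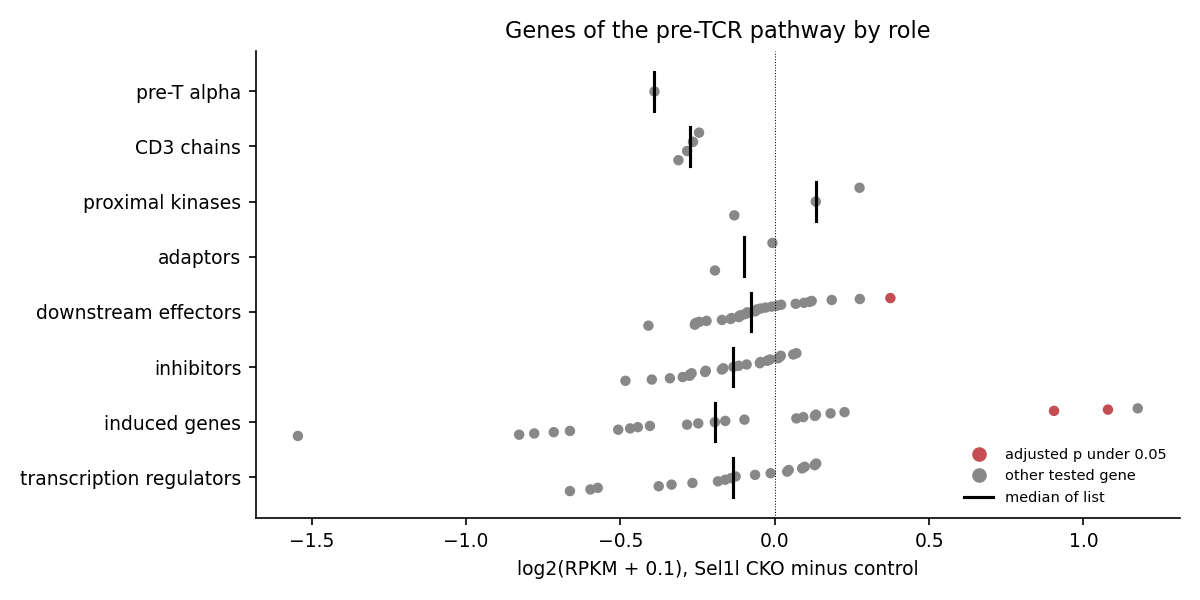
Difference between Sel1l CKO and control on the log2(RPKM + 0.1) scale (horizontal axis) for each tested gene of the pathway, grouped by role, with the median of each group as a black line and genes at a limma adjusted p under 0.05 in red. The red points are Shc1 among the downstream effectors and Slc3a2 and Slc7a5 among the induced genes.

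Known regulators of Ptcra and Cd3 transcription were examined as well, and 0 of 18 passed in limma, with a median fitted log2 difference of -0.13 and 6 lower and 0 higher at an unadjusted p under 0.05, beside 10.5% and 9.38% of all genes tested. Fitted differences were above 0 for 6 and below 0 for 12, beside 52.3% below 0 of all genes tested. Those above 0 include Tcf3, which encodes an E protein and was named after its value was seen (0.13, limma adjusted p = 0.347). The 4 regulators described next, all with a fitted difference below 0, were chosen outside the rule, with values known. Notch1, the receptor that acts with the pre-TCR, was at 33.9 ± 1.68 and 30.4 ± 3.10 RPKM (SD, n = 4 each, limma adjusted p = 0.323), with log2 differences of -0.30 and -0.02 within the replicate sets. Notch3 measured 19.0, 19.9, 20.7 and 17.5 RPKM over control replicates 1 to 4, against 11.97, 7.61, 16.6 and 17.2 RPKM over those of Sel1l CKO in the same order, without overlap (fitted log2 difference -0.60, limma adjusted p = 0.199), at -1.02 and -0.17 within the replicate sets. Its lowest library was Sel1l CKO replicate 2, and the lowest Ptcra value was in Sel1l CKO replicate 3. Whether Notch3 and Ptcra are linked here was not tested. Id3, an inhibitor of E proteins, had a fitted log2 difference of -0.66 (limma adjusted p = 0.228). Bcl11b, a T lineage transcription factor and the regulator with the lowest p, had one of -0.38 (limma adjusted p = 0.108).

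Markers of other cell types were summed in each library, since some of those cells express these genes. The sums use RPKM as deposited, on gene length with introns, so short genes weigh most in them. They compare libraries for the same list and do not measure the share of a cell type. Of the 6 markers of NK and innate lymphoid cells in the table, which also express Cd247, Lck, Fyn and Zap70, 4 were below 0.1 RPKM in every library (Klrb1c, Klrd1, Eomes and Prf1). The sum of that list was 57.4 to 68.0 RPKM in control and 44.2 to 53.8 RPKM in Sel1l CKO, nearly all of it Nkg7 and Gzma, and the ranges did not overlap. Myeloid markers summed to 19.0 to 22.4 RPKM in control and 13.7 to 17.8 RPKM in Sel1l CKO, and B cell markers, mostly Cd79b, to 8.22 to 10.2 and 5.31 to 8.22 RPKM, with Ms4a1, Pax5, Itgam and Csf1r at 0 or close to it. The ranges of these sums lay lower in Sel1l CKO (B cell sums met at 8.22 RPKM), and their part in the values of the receptor chains was not tested. In the study's methods, antibodies to CD11b, CD11c, Gr-1, CD49b and B220 serve to leave such cells out of the DN gate. Markers of γδ T cells, which use the same CD3 chains, summed to 15.3 to 19.3 RPKM in control and 10.3 to 25.05 RPKM in Sel1l CKO. Markers of DP and mature T cells summed to 24.2 to 42.9 and 17.6 to 28.9 RPKM, with Cd4 at 0.0672 to 0.238 RPKM over all libraries. Early progenitor markers summed to 0.576 to 0.779 and 0.302 to 0.561 RPKM, erythroid markers to 0.0657 to 1.17 and 0.530 to 2.68 RPKM, and those of epithelium and stroma to 1.10 to 1.40 and 1.03 to 1.48 RPKM. Of the 10 other DN3 markers, 0 passed the adjusted p in limma, and 4 were lower and 0 higher at an unadjusted p under 0.05, beside 10.5% and 9.38% of all genes tested. The fitted difference was below 0 for 9 of these markers, beside 52.3% of all genes tested. Their median was -0.22, the same as that of the 10 pre-TCR genes, beside -0.01 over all genes tested. Il2ra, which defines the stage, had a fitted log2 difference of 0.15 (limma adjusted p = 0.383). The list gave sums of 534 to 631 RPKM in control and 473 to 509 RPKM in Sel1l CKO, to which Thy1 gave the largest part. Whether the receptor chains differ in this from other DN3 genes was not tested.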

How the data were processed

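DN3 thymocytes were sorted into TRIzol, and libraries were made with a stranded mRNA kit. Per the submitters' processing notes, STAR 2.5.2b, HTSeq 2.7 and GRCm38 were used, and the values the authors deposited are RPKM of protein-coding genes (4 control and 4 Sel1l CKO libraries). Use of strand in the counting is not given in the sources used here. RPKM values are not counts, so no count model is a main result.

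With gene spans of GENCODE M21 (GRCm38), the RPKM of 11775 genes, 75.3% of the annotated ones, converted to whole reads (tolerance 0.02) in every library, against 3.2% on exon length. For 3143 further genes, Cd3e, Cd3d and Lat among them, a whole-number length was solved from the values. Values were analysed as log2(RPKM + 0.1) where the mean RPKM reached 0.1, with limma 3.58.1 in R 4.3.3 (moderated test, mean-variance trend, genotype only, Benjamini-Hochberg over 10177 genes, 95% intervals). A minimum of 1 would drop Fyn, whose RPKM is low through its introns. Exact permutation tests are two-sided over 70 assignments. Python 3.11.15, numpy 2.4.6, pandas 2.3.3 and matplotlib 3.10.9 were used for the rest, and the procedure was tested on simulated data. The genes and lists were chosen with earlier results of these data known. Named genes are all 10, pathway genes past the adjusted p (at most 8 per list), Syk and Sel1l, and other pathway genes are marked in the text as chosen with their values known. Alternatives were other pseudocounts, filters and scalings, fits without the trend, with array weights, with a replicate block or replicate sets, voom on recovered reads (mean of at least 10), and each library left out. Protein sequences were not used here.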

Additional observations from a re-analysis of the deposited data

Results flagged for a closer look

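In control, Zap70 in replicate 3 was at 3.24 RPKM, whereas the other 3 libraries were at 3.68 to 3.72 RPKM, a gap of 0.911 of the whole range (above Dixon's 95% critical value for 4 samples). It was the only such group among 30 compared (the 10 genes, Shc1, Slc3a2, Slc7a5, Syk and Sel1l in both genotypes), where chance gives about 1.5. Without control replicate 3 the fitted log2 difference of Zap70 was 0.23 (limma adjusted p = 0.527).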

How the results depend on the processing

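Over 21 alternatives, the fitted log2 differences of the 5 receptor chains, Lck and Lat stayed below 0, and those of Zap70 and, over 20 alternatives, Fyn (not tested at a mean RPKM of at least 1) above it. Lcp2 turned to 0.0487 with array weights, to 0.0771 within replicates 3 and 4, and ran from -0.0595 to 0.0809 with 1 library left out (above 0 without control replicates 2 or 3 or Sel1l CKO replicate 1). The number of the 10 genes past the adjusted p was 0 in the main analysis, 1 with quantile normalization (Cd3e, adjusted p = 0.0442), 1 with array weights (Ptcra, adjusted p = 0.0313), 2 with replicates 1 and 2 against 3 and 4 as a term (Cd3e and Cd3g), and from 0 to 1 with 1 library left out (Ptcra without Sel1l CKO replicate 1). Their median was -0.11 with array weights, -0.13 within replicates 3 and 4 and -0.25 to -0.17 with 1 library left out. The receptor chains lower at an unadjusted p under 0.05, counted over alternatives chosen after seeing the data, numbered 5, against 3 within replicates 1 and 2, 4 within replicates 3 and 4 and 4 with array weights (both without Cd247), and from 4 to 5 with 1 library left out. Over all genes, 401 passed in the main analysis and 657 with array weights. With 1 library left out, 234 to 345 passed (234, 258, 241 and 250 without control replicates 1 to 4). Within replicates 1 and 2 alone 367 passed, and within replicates 3 and 4 alone 275. The causes of these shifts were not tested. The labels do not say that replicate numbers pair the libraries, and deviations of same-numbered libraries correlated at 0.162, 0.0973, 0.445 and 0.00514 over genes. With a replicate block 292 genes and 0 of the 10 passed, and the block changed no call among the 10. Median-of-ratios scaling moved the median of all genes by -0.02 and quantile normalization by 0.02 on the log2 scale. Level orders by principal transcript length were added after seeing the data. At 4 libraries against 4, depth is not what limits these genes, and the intervals of the receptor chains run from 62.2% (Ptcra) to 97.4% (Cd247) of control.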

Other observations

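By the root mean square difference of centred log2 values over the 8 libraries, Cd3g and Cd247 were the most alike of the 10 genes (0.0483), followed by Lck and Lat (0.0596), and Cd3e was nearest to Cd247 (0.0600). Nearest distances were 0.148 for Ptcra (to Cd3d), 0.145 for Cd3d, 0.157 for Fyn and 0.178 for Zap70, so Ptcra did not stand apart in this. The nearest genes to Ptcra in the whole tested table were Txndc15 (0.0619), Angptl2 (0.0902) and Slc46a1 (0.0957). These are descriptions over 8 libraries that share genotype and library effects.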
